A study of Bos taurus with 6 samples.

Results

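Bovine miRNA loci that were predicted from sequencing reads rather than taken from a catalogue were examined in the intramuscular fat of steers and bulls. The miRNA count table held 8800 rows, of which 5276 were predicted bovine sequences, named by a chromosome, a running number and an arm. The rows described here were chosen by their summed count: 777 of the 5276 predicted rows, from 675 of 2638 predicted loci, reached 20 reads or more over the 4 libraries. They made up 14.7% of the predicted rows and held 99.4% of the counts on predicted rows. Their abundance is therefore a description and not a finding, whereas the difference between steers and bulls was not used to choose them.

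All animals were male Chinese Qinchuan cattle weaned at 3 mo of age and slaughtered at 24 mo of age, and the fat was dissected from the sternomandibularis muscle. Steers were castrated surgically at 6 mo, while bulls stayed intact and received the same diets. Each group had 2 small RNA libraries. The design text gives 3 animals pooled in each library and the sample labels give 1. Because a pool hides the animals, p-values here rest on the spread between the 2 libraries of a group, not between animals. The test estimates that spread with help from all tested rows. The SE and p-value of a row therefore do not measure the spread of that row alone.

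As background, a miRNA is cut from the arm of a folded hairpin transcript, loaded into an Argonaute protein and paired with target mRNAs mainly through its seed, bases 2 to 8 from its 5′ end. The strand that is loaded is called mature, and the strand from the opposite arm is called star and is usually rarer. A prediction program searches the genome around read stacks for such hairpins, and fragments of abundant housekeeping RNAs such as ribosomal and transfer RNAs are a known source of false predictions. In adipose tissue, catalogued miRNAs take part in the control of fat cell formation and lipid storage.

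The sequences that carried the most reads are shown first, with the seed in capitals, because a few of them held most of the counts.
chr20_22514_mature: gGAATACCgggtgctgtaggct
chr7_8460_mature: gGAATACCgggtgctgtaggct
chrx_30025_star: tTGATAAAgtaaata
chrx_30025_mature: aTCTATTGaaagtcagc
chr20_22488_mature: gCCTGTCTgagcgtccc
chr23_25841_mature: tCCTTCTGatcgaggcc
chr4_4664_mature: gCATTAGTggttcagtg
chr25_26848_mature: aTACCGGGtgctgtaggc
chr12_15221_mature: cTACTACCgattggatgg
chr3_4242_mature: cCCAGTGCtctgaatgt
chr10_11665_mature: gTTTCCATagtgtagtggtt
chr4_5437_mature: gGGCGCGCgccgcggctgga

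The sequences with the largest rises in steers are shown next, again with the seed in capitals. They range from an AT-rich sequence of 22 bases to one made of G and C alone.
chr29_29175_mature: gAGGGCTCggccgggta
chr27_27856_star: tCTTGCTTctacttgaaaag
chr21_23508_mature: aTTCATGAtgaataatacgtgt
chr26_27835_mature: cGGGGCCGggggcggccggggc
chr14_17275_mature: gGGTGGTCgtctggcgt
chr15_17662_mature: cCGGTCGCcaggcgcct
chr29_29614_mature: cCCCCCCCgcctccccc
chr5_7227_mature: aGGGGGCGgggcggggt
chr7_8281_mature: tATGATTCcattgatctgaagcgt

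The sequences with the largest falls in steers follow in the same form.
chr10_12283_star: aTTGACAGactgtttta
chr2_2783_mature: gTCGGTGCgtgcgtgcgtg
chr7_8138_mature: cTGGTAGAgggtgggcgggc
chr6_7637_mature: tAGGATTGaaagtcgac
chr27_27886_mature: cAAGAATGttttcattaa
chrx_29885_star: tCCCATCTccccgacgccgtcc
chr20_22798_mature: tTTCCTATagttctagc
chr2_1796_mature: aAAAATTAgagtgttcaaa
chr15_18252_mature: cTCCCAACtccataaac
chr7_8162_mature: tCTGACTCtcccctctgacccag

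The libraries held 10452582 and 8859844 counts in steers and 7784227 and 6556511 counts in bulls. Trimmed mean of M-values (TMM) scaling gave factors from 0.746 to 1.42, so levels are given as TMM-scaled counts per 1000000 (CPM). The fat markers ADIPOQ, PLIN1, FABP4, LEP and CIDEC had 1153 to 9931 counts in each pooled mRNA library of the same tissue. For the mRNA pools alone, CPM are counts per 1000000 total counts, without TMM scaling. ADIPOQ (356 against 674 CPM), PLIN1 (355 against 546) and FABP4 (312 against 767) were lower in the steer pool than in the bull pool. LEP (100.3 against 117) and CIDEC (783 against 760) differed less. With 1 pool per group these values have no replicate check. The summed level of 6 muscle miRNAs was 2208 and 3377 CPM in steers against 5842 and 5394 CPM in bulls, that of 7 immune miRNAs 1510 and 1243 against 3833 and 1893 CPM, and that of 3 erythroid miRNAs, most of it bta-miR-486, 3401 and 7360 against 2248 and 1757 CPM. For 6 epithelial miRNAs the sum was only 1.03 to 4.76 CPM. The muscle and immune sums were lower in both steer libraries, but not every member was. Most of the muscle sum was bta-miR-133a, and bta-miR-206 overlapped between the groups (24.8 and 53.9 against 65.5 and 49.0 CPM). Among the immune miRNAs, bta-miR-142-5p, bta-miR-150 and bta-miR-223 were lower in both steer libraries. The groups overlapped for bta-miR-142-3p, bta-miR-155, bta-miR-146a and bta-miR-146b. The erythroid sum was higher through bta-miR-486 alone, since bta-miR-451 (22.5 and 12.1 against 68.9 and 50.9 CPM) and bta-miR-144 were lower in steers. For all these lists, their part in the differences below was not tested.

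The predicted sequences took 6.75% and 9.77% of all counts in the 2 steer libraries (mean 8.26% ± 2.14 SD, n = 2) and 6.34% and 12.9% in the 2 bull libraries (9.65% ± 4.67 SD, n = 2). The ranges overlapped, and the spread within each group exceeded the difference between the means. With TMM effective library sizes as the denominator the order of the means turned, to 9.58% ± 0.747 in steers (9.06% and 10.1%) and 7.82% ± 1.82 in bulls (6.53% and 9.10%), and the ranges again overlapped. In each library 769 to 772 of the 777 rows had at least 1 count, and 754 rows had a count in all 4 libraries. No row was empty in both bull libraries, and 3 rows were empty in both steer libraries.

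The counts were concentrated in few rows. The summed count had a median of 96 reads, with quartiles at 35 and 456, and a maximum of 680556. Only 136 rows reached 1000 reads and 6 rows reached 100000. The most abundant row alone held 23.4% of the counts on these sequences, the first 10 rows held 66.6% and the first 50 held 89.3%. At the lower limit, 52 rows had a summed count of 20 to 22, and 73 predicted rows just outside had 17 to 19. The 18 rows at exactly 20 had 0 to 11 counts in a library and the 26 rows at 19 had 0 to 14, so single rows near the limit cannot be told from those left out.

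The most abundant sequence was listed at a pair of loci, chr20_22514_mature and chr7_8460_mature, with identical letters. As background, the ending ggtgctgtaggct is the 3′ end of the 5S ribosomal RNA of mammals, and no ribosomal sequence was matched here. chr20_22514_mature was at 22255 and 23522 CPM in steers and at 12754 and 22435 CPM in bulls. chr7_8460_mature was at 15331 and 16078 CPM in steers and at 9567 and 16588 CPM in bulls. For both rows only bulls library 1 was low, while bulls library 2 was near the steers. The log2 fold changes (steers over bulls) of 0.38 ± 0.44 (SE) and 0.26 ± 0.45 did not pass the test, with adjusted p = 0.599 and 0.734 by edgeR's quasi-likelihood test. Together these rows took 2.80% and 3.83% of the steer libraries and 2.17% and 5.55% of the bull libraries. The row chr25_26848_mature lies within the same letters, and its mean level was 884 ± 16.1 (SD, n = 2) CPM in steers and 497 ± 103 CPM in bulls, with adjusted p = 0.262.

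The next most abundant rows came from chromosome X and from a sequence listed at several loci. chrx_30025_star, a 15-base run rich in A and T, was at 7105 and 5097 CPM in steers and at 3874 and 5060 CPM in bulls. It exceeded its own mature arm, which was at 1086 and 692 CPM in steers and 984 and 1345 CPM in bulls. Neither arm passed the test, with adjusted p = 0.549 and 0.631. The sequence of chr20_22488_mature was also listed as chr20_22487_mature and chr7_8374_mature. The 3 rows were at 2811 to 3321 CPM in steers, at 2207 to 2632 CPM in bulls library 1 and at 4194 to 4851 CPM in bulls library 2, so the steers lay between both bull libraries. chr23_25841_mature was at similar levels in all libraries, with 2842 and 2742 CPM in steers and 3486 and 2865 CPM in bulls. Of the 15 rows with the highest mean CPM, only chr4_5437_mature, described below, passed the test between steers and bulls.

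Rows were spread over 31 chromosomes, named 1 to 29, X and Y. The row names hold no start or end, so no finer position is given. Chromosomes 19 (50 rows), 3 (48), 1 (40) and 7 (40) had the most rows, and chromosome 27 (9) and Y (2) the fewest. Rows followed the number of predictions: chromosome 19 had 5.19% of all predicted rows and 6.44% of those with 20 reads, and chromosome 3 had 5.76% and 6.18%. The share of predicted rows that reached 20 reads went from 9.23% on chromosome 16 to 21.7% on chromosome 28, and was 25% of 8 rows on Y. Counts did not follow the rows. Chromosome 20, with 14 rows, held 31.4% of the counts, chromosome 7 held 20.8% and chromosome X 8.13%, through the leading rows above. The leading rows of chromosomes 20 and 7 have identical letters, so they may count the same reads. Their shares do not place these reads on either chromosome. The 50 rows of chromosome 19 held 1.53%. Called rows lay on 27 chromosomes, beside 14.2% called over all tested rows of the miRNA table. Chromosome 2 had the most, 8 of 22 tested rows (2 higher and 6 lower in steers). None of the tested rows on chromosomes 11 (20), 24 (12), 28 (14) or Y (1) was called. Tested rows per chromosome were few, and no chromosome was tested against that share.

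**Figure D1:**
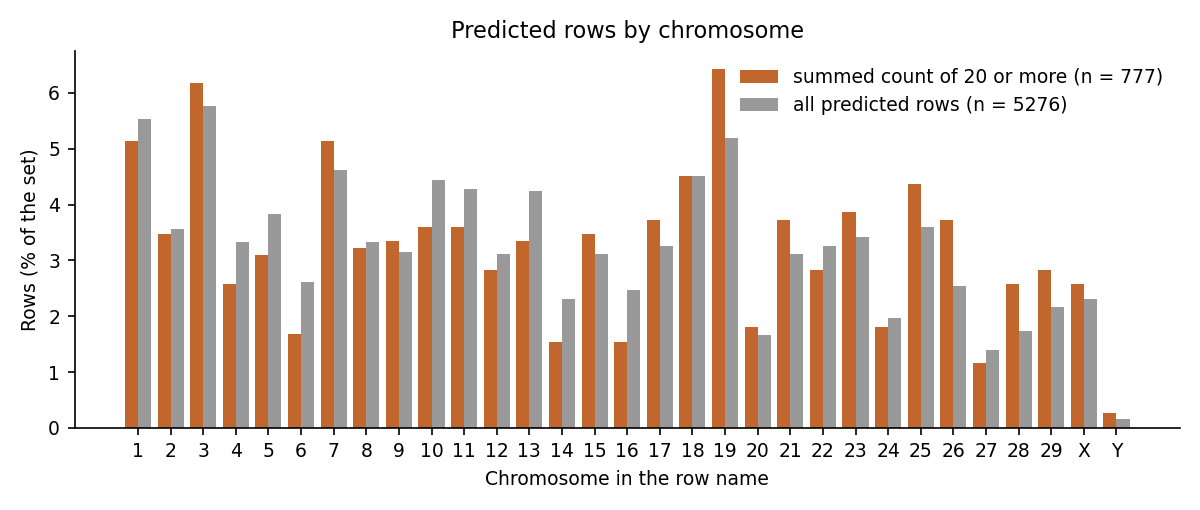
Bars give the percentage of rows on each chromosome, in orange for the 777 rows with a summed count of 20 or more and in grey for all 5276 predicted rows. Both sets are spread over all 31 chromosomes, and chromosome 19 has 6.44% of the first and 5.19% of the second.

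The lengths of the predicted sequences differed from those of known bovine miRNAs. A sequence was found for 766 of the 777 rows, and these held 698 distinct sequences of 13 to 29 bases. The median length was 18 bases against 22 bases for the 444 known bovine miRNAs with a summed count of 20 or more. The most common length was 17 bases, with 227 rows (29.6%), a length that 1 known miRNA (0.225%) had. Up to 18 bases long were 387 rows (50.5%) against 8 known miRNAs (1.80%), and 19 to 24 bases long were 359 (46.9%) against 431 (97.1%). Weighted by counts, sequences of up to 18 bases held 50.2% of the counts of the predicted set and 0.0311% of those of the known set. Prediction and cataloguing use length themselves, and these values are descriptions of both lists.

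**Figure D2:**
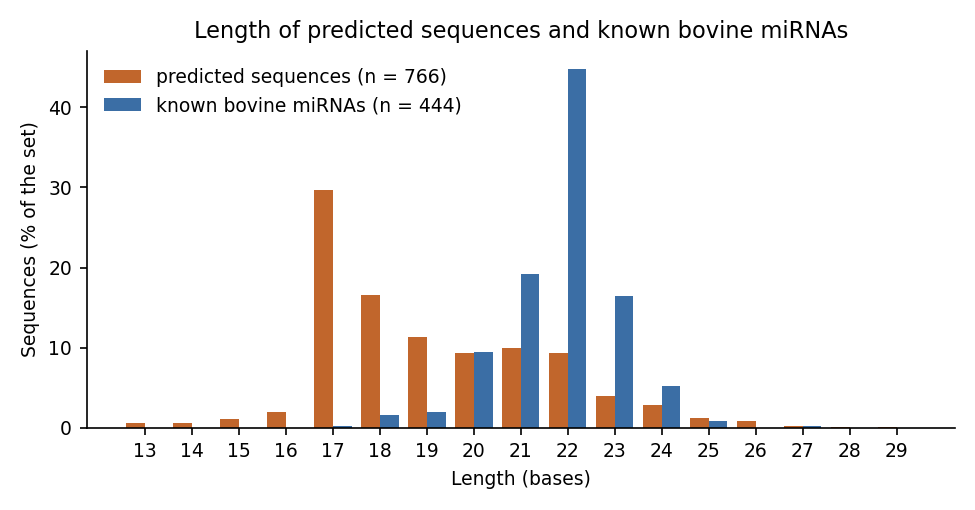
Bars give the percentage of sequences at each length in bases, in orange for 766 predicted rows and in blue for 444 known bovine miRNAs. The predicted set peaks at 17 bases (29.6%) and the known set at 22 bases (44.8%).

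Base composition differed as well. The median GC content was 63.2% against 47.8% for the known miRNAs, and 193 rows (25.2%) were at 80% or more against 13 known miRNAs (2.93%). The first base was C in 34.7% and T in 22.1% of the predicted sequences, against 16.9% and 41.0% of the known ones. As background, Argonaute proteins favour a first U, written T here. Of the 698 distinct sequences, 31 (4.44%) carried the seed of one of the known miRNAs. The known miRNAs had 366 distinct seeds, which are 2.23% of the 16384 possible runs of 7 bases. That share takes all runs as equally likely, while the predicted sequences were rich in G and C, so no excess is read from it. The clearest seed match was chr13_16316_mature, matched by name to rat let-7b-5p, a member of the let-7 family that slows growth and supports differentiation.
chr13_16316_mature: tGAGGTAGtaggttgtggtc
Its capitals are the let-7 seed, shared with bta-let-7a-5p and bta-let-7b. It drew 108 and 132 reads from the steer libraries against 96 and 87 from the bull libraries, and its log2 fold change of 0.41 did not pass the test (adjusted p = 0.630). In all, 24 rows carried such a match to a human, mouse or rat miRNA in their name, and 22 of them were tested.

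Of the 777 rows, 571 passed the filter on low counts and entered the test, which was fitted on all 1073 miRNA rows that passed it. The other 206 rows had at most 61 reads. Among the 571 rows, 50 were called higher and 36 lower in steers (adjusted p under 0.05 and more than 2-fold, by edgeR's quasi-likelihood test). Over all tested rows 7.08% were called higher and 7.08% lower, 14.2% in either direction, and the 8.76% higher and 6.30% lower among the predicted rows lay near that background. The median log2 fold change was 0.01 for the predicted rows and -0.07 for all tested rows, and the quartiles of the predicted rows were -0.63 and 0.79. The predicted rows were themselves part of the 1073 tested rows. Known bovine miRNAs were called in 50 of 396 cases (12.6%), 20 higher and 30 lower in steers. Homologs of other species' miRNAs were called in 16 of 106 (15.1%), 6 higher and 10 lower. Under TMM scaling, higher calls outnumbered lower ones among the predicted rows, and the order was the other way in these other sets. Counted as distinct sequences, the predicted calls were 42 higher and 33 lower. The shares lay near the background, the split moved with the scaling, and the other sets are given under TMM alone. No direction particular to the predicted rows is therefore read from these counts. Without the steers library 2 only 7 predicted rows were called higher and 2 lower, and without the steers library 1 there were 22 and 3. With scaling to total counts alone, 1 was called higher and 0 lower (119 rows at an unadjusted p under 0.05) by the same edgeR test, and the median of all tested rows moved to -0.56. Higher rows were 58.1% of the calls under TMM and 73.6% under upper-quartile scaling.

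**Figure D3:**
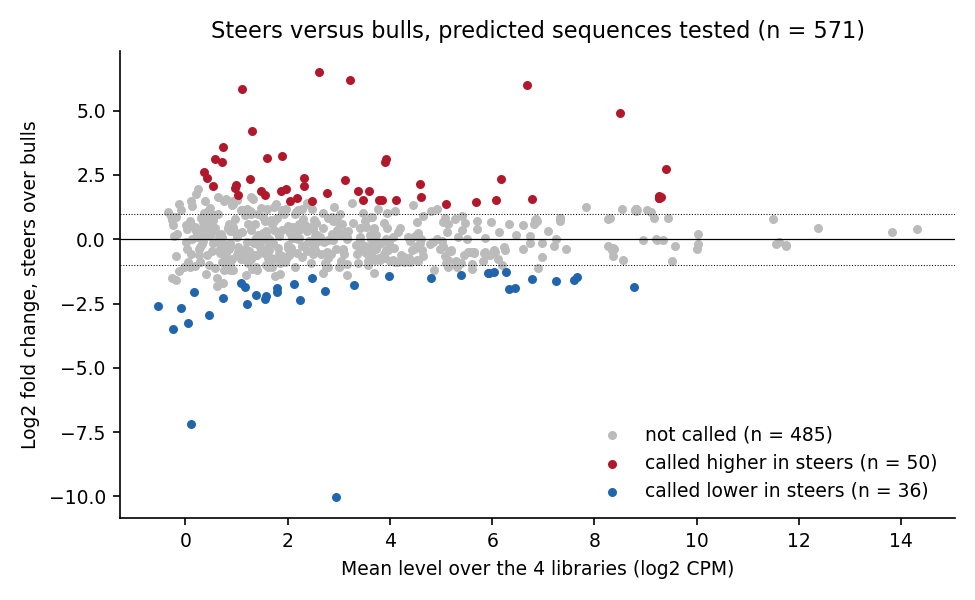
Each point is one of 571 tested predicted sequences, with its mean level in log2 CPM on the x axis and its log2 fold change, steers over bulls, on the y axis; dotted lines mark 2-fold. The 50 rows called higher (red) and 36 called lower (blue) are spread over low and high levels, and the lowest points are the rows listed at 0 in both steer libraries, whose fitted value is no bound.

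Groups did not overlap in 48 of the 50 rows called higher and in all 36 called lower. Of the 571 tested rows, 164 (28.7%) were higher and 164 lower in both steer libraries than in both bull libraries, against 26.7% higher and 31.5% lower of all 1073 tested rows. The filter let 18 tested rows pass through the steers alone, of which 15 were called, and 40 through the bulls alone, of which 15 were called. Such rows had to differ to enter the test, so their calls are no independent support. They include 8 of the 10 largest rises, all but chr21_23508_mature and chr26_27835_mature, and 9 of the 10 largest falls, all but chr2_1796_mature. Of the 86 called rows, 8 were called in each of the 4 leave-one-out fits, which drop one library at a time, 6 of them higher and 2 lower in steers, while 11 were called in none of these fits. Of these 8 rows, 6 had entered through one group alone.

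Among the rises, 6 rows kept their call whichever library was left out. chr21_23508_mature, an AT-rich sequence of 22 bases, drew 1700 and 1579 reads from the steer libraries against 31 and 21 from the bull libraries. That is 218 and 184 CPM against 4.10 and 2.25 CPM. Both steer libraries were far above both bull libraries, and close to each other. Its log2 fold change was 5.99 ± 0.59 (SE, adjusted p = 5.72e-21), and it was the one row also called under total-count scaling (adjusted p = 0.0169). chr26_27835_mature, made of G and C alone, drew 2864 and 8797 reads from the steer libraries against 147 and 250 from the bull libraries. The steers differed 2.80-fold between libraries in CPM but both exceeded the bulls, with a log2 fold change of 4.91 ± 0.59 (adjusted p = 6.23e-14).

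The other rows of this kind were scarce in bulls and passed the filter through the steers alone. chr29_29175_mature drew 42 and 161 reads from the steer libraries and 1 from each bull library, a ratio of summed TMM-scaled counts of 105 (95% exact interval 28.6 to 871, for counting error only). chr27_27856_star drew 83 and 224 reads from the steer libraries and 2 from each bull library, with a log2 fold change of 6.19 ± 0.75. Both were nearly absent from the bull libraries, with steers library 2 the higher. chr25_26995_mature, for which no sequence was found, drew 25 and 45 reads from the steer libraries against 1 and 0 from the bull libraries, a ratio of 72.3 (12.6 to 2895). chr14_17275_mature drew 23 and 55 reads from the steer libraries and 2 from each bull library. Its letters were also listed as chr14_17276_mature, with 15 and 52 reads from the steer libraries against 8 and 5 from the bull libraries, a smaller log2 fold change of 2.34 against 4.22. The fold of a row with 1 or 2 counts in a group is poorly fixed by these depths.

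The remaining rises named by the same rule were also low in level. chr15_17662_mature, chr29_29614_mature, chr5_7227_mature and chr7_8281_mature had 14 to 31 counts in steers library 1, 31 to 81 in steers library 2 and 1 to 7 in the bull libraries. Their log2 fold changes were 3.14 to 3.61. The letters of chr5_7227_mature were also listed as chr19_21754_mature, whose smaller log2 fold change of 1.39 did not pass the test. Another row with the letters of chr15_17662_mature did not pass the filter on low counts and was not tested. chr4_5437_mature was the most abundant called row, with 500 and 1859 CPM in steers and 162 and 196 CPM in bulls. Steers library 2 was 3.71-fold above library 1, and the log2 fold change was 2.72 ± 0.53 (adjusted p = 1.95e-05). It lost its call without steers library 2. In chr20_22526_mature, called with a log2 fold change of 3.02, the groups overlapped: it drew 22 and 432 reads from the steer libraries against 45 and 7 from the bull libraries, so that 1 steer library carried the difference. It is named after its values were seen.

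**Figure D4:**
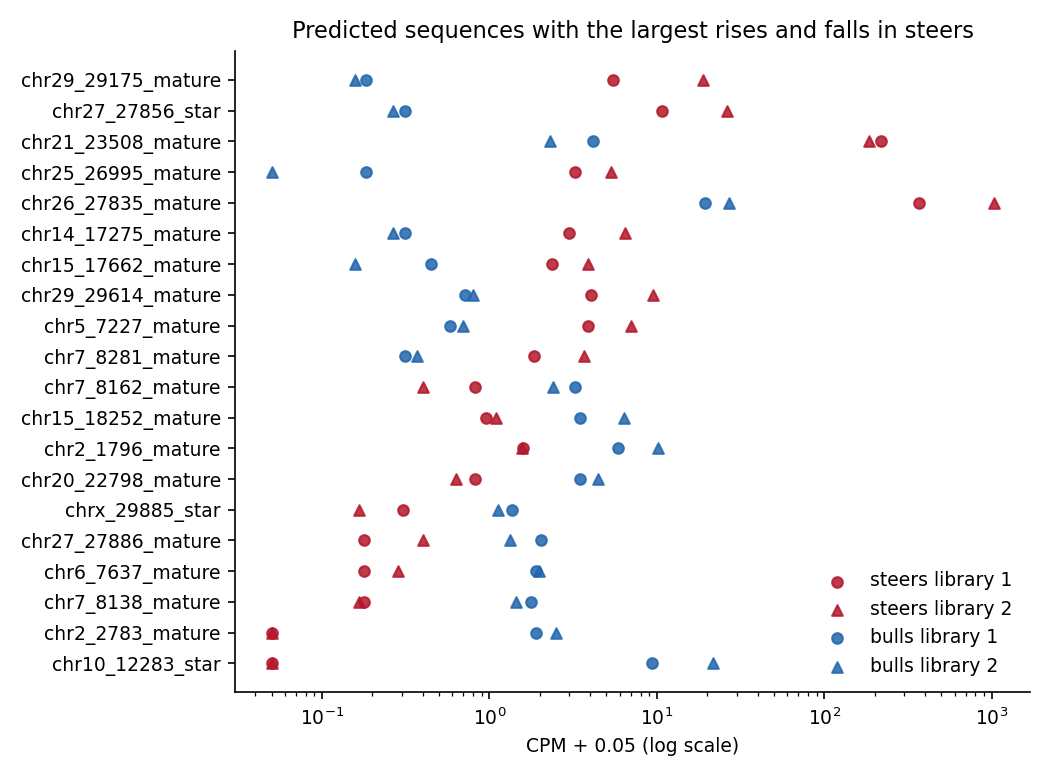
Points give the level (CPM plus 0.05, log scale) in each of the 4 libraries for the 10 rows with the largest rises and the 10 with the largest falls in steers; red marks steers and blue bulls, circles library 1 and triangles library 2. The rows were chosen among called rows whose groups did not overlap, so steers and bulls separate in every row by that rule. The points at 0.05 are counts of 0, and only chr21_23508_mature and chr26_27835_mature exceed 100 CPM.

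Among the falls, a pair of rows was listed at 0 in both steer libraries. chr10_12283_star had 70 and 202 counts in bulls, or 9.26 and 21.7 CPM, and was at least 42.0-fold lower in steers when 3 counts per library are taken as the limit that a 0 allows. chr2_2783_mature had 14 and 23 counts in bulls and was at least 5.87-fold lower in steers. Both passed the filter through the bulls alone, so their calls in every leave-one-out fit add no support. The 8 other largest falls were low throughout, with 1 to 13 counts in the steer libraries and 10 to 94 in the bull libraries, and log2 fold changes from -3.51 for chr7_8138_mature to -2.28 for chr7_8162_mature. In chr7_8138_mature the 2 summed counts of steers against 26 of bulls gave a ratio of 0.0794 (95% exact interval 0.00914 to 0.317). The most abundant of them was chr2_1796_mature, with 12 and 13 reads from the steer libraries against 44 and 94 from the bull libraries. chrx_29885_star, the scarcest with 2 and 1 counts against 10 in each bull library, lost its call in each leave-one-out fit. Another row with the letters of chr27_27886_mature had a log2 fold change of -1.58 and was not called.

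The falls at higher levels were smaller. chr3_3635_mature, named after its values were seen, drew 1687 and 1368 reads from the steer libraries against 3413 and 8677 from the bull libraries, with a log2 fold change of -1.88 ± 0.52 (adjusted p = 0.00585). The sequence of chrx_29761_mature was listed also on chromosomes 1 and 19 (chr1_1368_mature and chr19_21241_mature), and all 3 rows were called lower. They had 291 to 522 and 249 to 389 counts in the steer libraries and 830 to 1057 and 1358 to 1742 in the bull libraries, with log2 fold changes from -1.94 to -1.54. As background, this is how the 18S ribosomal RNA of mammals begins. A related row, chr29_29242_mature, drew 8 and 14 reads from the steer libraries and 47 from each bull library. It too was called lower, with a log2 fold change of -2.06.
chrx_29761_mature: tACCTGGTtgatcctgc
chr29_29242_mature: tACCTGGTtgattctgc
Of the rows with a named match to another species, 1 was called: chr1_473_mature@@hsa-miR-4454 drew 419 and 309 reads from the steer libraries against 645 and 1226 from the bull libraries, with a log2 fold change of -1.27 ± 0.46 (adjusted p = 0.0456).

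Many predicted loci shared their letters. In all, 59 sequences were held by several rows, 127 rows together, and 16 of them lay on more than one chromosome. The copies had nearly the same counts: the highest summed count was a median of 1.07 times the lowest, and 33 of 59 were within 1.1-fold. In 5 of 59 the copies differed more than 2-fold, up to 12.1-fold for the letters of chr3_4242_mature. For 3 of 59 the copies also differed in their call, in the case of chr15_17662_mature because the other copy was not tested. Rows of one sequence are therefore not independent loci, and the 85 called rows with a sequence held 42 distinct sequences that were higher and 33 that were lower.

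The most repeated letters were those of chr3_2903_mature, listed also as chr22_24403_mature to chr22_24406_mature. With 17-base rows that differ by up to 2 bases, chained from row to row, they formed a family of 19 rows with 10 sequences on 10 chromosomes. This grouping was made after the values were seen. As background, the letters closely resemble the 5′ end of a glycine transfer RNA of mammals, and no transfer RNA sequence was matched here. Capitals below mark bases that differ from the most abundant row.
chr4_4664_mature: gcattagtggttcagtg
chr3_2903_mature: gcatGGgtggttcagtg
chr18_20761_mature: gcCttGgtggttcagtg
chr3_2926_mature: gcattGgtgAttcagtg
chr13_15436_mature: gcattGgtggttTagtg
chr23_25856_mature: gcattGgAggttcagtg
chr3_3405_mature: gcaCtGgtggttcagtg
chr13_16487_mature: gcattGgtggCtcagtg
chr1_296_mature: gcattGgtggtAcagtg
chr7_8694_mature: gcattTgtgTttcagtg

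The rows of this family fell into a few levels. chr4_4664_mature drew 25475 and 34843 reads from the steer libraries against 23026 and 11161 from the bull libraries. The 5 identical rows had 5511 to 5731 and 9713 to 10046 counts in the steer libraries and 3195 to 3394 and 1503 to 1575 in the bull libraries. A further 11 rows with 7 distinct sequences had almost one set of values, 3980 to 4147, 6033 to 6256, 3014 to 3133 and 1355 to 1494 counts in the same order. So rows with different letters were at most 1.1-fold apart in any library. The family held 14.3% and 18.0% of the counts on predicted rows in steers and 15.4% and 4.22% in bulls, with bulls library 2 standing apart. Rows with nearly the same counts may count the same reads more than once, so these shares do not give separate reads.

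All 19 rows had a positive log2 fold change, from 0.79 to 1.67, and only the 5 identical rows were called higher (1.61 to 1.67, adjusted p from 0.0147 to 0.0183). The 11 rows with almost one set of values had log2 fold changes of 1.11 to 1.19 and adjusted p from 0.102 to 0.127. As the rows carry nearly the same counts, the 5 calls amount to one measurement. chr3_2903_mature kept its call in 1 of the 4 leave-one-out fits.

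A run of 13 bases, CATGGACTGTAGC, was shared by 3 rows called higher in steers, on 3 chromosomes and on either strand. It was found by comparing called rows after their values were seen. It occurred in no other of the 698 distinct sequences (0.430% hold it, both strands searched) and in 0 of the catalogued bovine miRNAs. As background, these letters belong to a short interspersed repeat that is common in ruminant genomes. Capitals mark the run.
chr2_2413_mature: acccCATGGACTGTAGC
chr4_5414_mature: atccCATGGACTGTAGC
chr21_23355_star: cagGCTACAGTCCATGcggttgc
chr2_2413_mature drew 165 and 492 reads from the steer libraries against 60 and 90 from the bull libraries, with a log2 fold change of 2.16 ± 0.52. chr21_23355_star had 187 and 427 counts against 84 and 116, with a log2 fold change of 1.65 ± 0.51. chr4_5414_mature had 52 and 84 counts against 20 and 30, with a log2 fold change of 1.48 ± 0.54. In all 3 rows both steer libraries exceeded both bull libraries.

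Both arms of a hairpin reached 20 reads in 102 loci, and 117 star rows had no mature partner among the 777. In these 102 loci the star had a median of 0.379 of the counts of its mature arm. It exceeded the mature arm in 27 of them, among them chrx_30025 and chr25_26848. Loci with an arm under 20 reads are left out, so this median depends on that limit and does not describe predicted loci in general. In 64 loci both arms were tested, with the same sign of change in 37. The arms of 2 loci were both called. At chr4_5414 both rose, the star with 98 and 215 reads from the steer libraries against 34 and 54 from the bull libraries (log2 fold change 1.87). At chrx_29671 they moved apart. Its mature arm drew 11 and 13 reads from the steer libraries against 25 and 71 from the bull libraries (log2 fold change -1.90 ± 0.58), and its star drew 138 and 211 reads from the steer libraries against 46 and 81 from the bull libraries (1.52 ± 0.53). The difference between the arms was not tested.
chrx_29671_mature: cGGCGGGGgcgcgcggc
chrx_29671_star: cCGCGCCCgcccgcgccgc

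Calls occurred in each class of length, arm and GC content given here, with a smaller share called at higher GC content. Among tested rows of up to 18 bases 24 were higher and 24 lower, of 317, and among those of 19 to 24 bases 24 were higher and 12 lower, of 242. Mature rows were called in 15.6% and star rows in 13.4% of tested cases. Rows under 50% GC were called in 20% of 130 cases, those from 50% to under 80% in 15.4% of 272, and those at 80% or more in 10.2% of 167. These shares are descriptions beside the 14.2% of all tested rows.

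Libraries of the same group differed about as much for the predicted rows as for known bovine miRNAs. The median absolute log2 ratio between the 2 libraries was 0.42 in steers and 0.55 in bulls for the predicted rows, against 0.39 and 0.53 for known bovine miRNAs. With its sign kept, the median log2 ratio of library 2 over library 1 was 0.19 in steers and 0.43 in bulls for the predicted rows. Library 2 thus tended to be the higher after TMM scaling, more so in bulls. More than 4-fold apart were 12 rows in steers and 6 in bulls. In some of them the same libraries differed in both groups. chr16_18774_mature drew 677 and 12042 reads from the steer libraries against 89 and 6493 from the bull libraries, a ratio of library 2 to library 1 of 16.1 in steers and 56.8 in bulls on the scale of CPM plus 0.5. chr8_9784_mature drew 330 and 8521 reads from the steer libraries against 68 and 4165 from the bull libraries, with ratios of 23.2 and 47.1. chr24_26055_mature had 23 and 335 against 22 and 496 counts, with ratios of 11.5 and 15.7.
chr16_18774_mature: aCAGACCAgtagacttga
chr8_9784_mature: cCAGATGAgtgctctcc
chr24_26055_mature: tCTGCCTGggcgtcaca
With chr20_22833_mature (6.74 and 4.18) these were 4 tested rows above 4-fold in both groups, and 0 rows were below it in both. A further 2 rows were over 4-fold apart in opposite directions, chr20_22526_mature, given above, and chr1_365_mature, with 192 and 44 against 9 and 124 reads. Of 396 tested known bovine miRNAs, 1 was above 4-fold in both groups. The first 3 of these rows did not pass the test between steers and bulls, with adjusted p = 0.142, 0.102 and 0.604, whereas chr20_22833_mature was called higher (adjusted p = 0.0184) although its groups overlapped, with 6 and 69 reads from the steer libraries against 1 and 20 from the bull libraries. The labels give no batch or date to set beside these libraries.

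**Figure D5:**
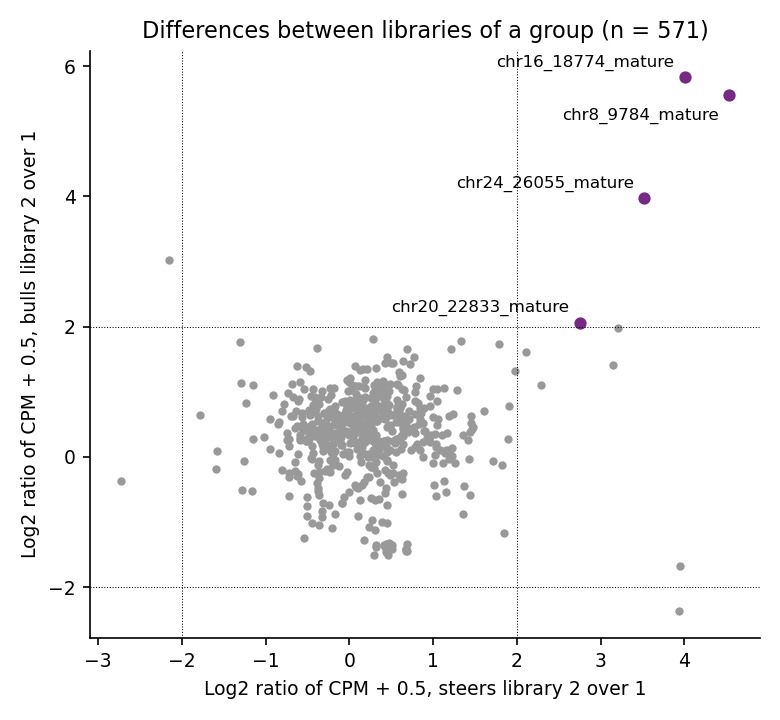
Each point is one of 571 tested predicted sequences, with the log2 ratio of CPM plus 0.5 of library 2 over library 1 in steers on the x axis and in bulls on the y axis; dotted lines mark 4-fold. Most points lie near the centre, 2 points are over 4-fold apart in opposite directions, and the 4 named rows (purple) are above 4-fold in both groups.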

How the data were processed

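Small RNA was purified from intramuscular fat and sequenced on an Illumina HiSeq, and the authors deposited whole-number read counts per miRNA row, not normalized. Per the study's methods, adaptors and short or poor reads were removed, and BWA mapped the rest to miRBase entries and to the genome of cattle; the submitters' processing notes name a human build, and how reads on several loci were counted is not given in the sources used here. Counts of the pooled mRNA libraries served only for the fat markers. Sequences were read from the study's list of predicted miRNAs, of which a shortened copy was used.

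Counts were tested in R 4.3.3 with edgeR 4.0.16 (TMM scaling, filterByExpr, glmQLFit, glmQLFTest, Benjamini-Hochberg adjustment over all tested rows) and called at an adjusted p under 0.05 and a log2 fold change beyond 1. The script was tested on simulated data. SE is the log2 fold change divided by the root of F. DESeq2 1.42.0 and limma 3.58.1 were alternatives. With 2 libraries against 2, an exact permutation test of one value cannot go below p = 0.333, so none was used. Intervals and floors cover counting error only.

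Members and lists were chosen with earlier results of these data known. Rows named by rule include the 15 of highest mean CPM. They also include the 10 largest rises and 10 largest falls among called rows whose groups did not overlap (1 row per sequence). Sequences held by 3 or more rows, the 5 loci with both arms and the most counts, and called rows with a match to another species complete them. Other rows were chosen after their values were seen, also where this is not said beside them. The repeated sequences of chr19_21684_mature, chr19_21794_mature and chr15_17514_star had 0 called rows.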

Additional observations from a re-analysis of the deposited data

How the results depend on the processing

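Main counts were 50 predicted rows higher and 36 lower in steers. Fits without one library gave 7 to 49 higher and 2 to 31 lower, with a median log2 fold change of -0.16 to 0.23. Scaling moved the split: upper-quartile scaling gave 64 higher and 23 lower, DESeq2 size factors 57 and 29, TMM factors from known bovine miRNAs 18 and 4, and total counts 1 and 0, with a median of -0.49. Calls were 58.1% higher with TMM, 73.6% with upper-quartile scaling and 81.8% with factors from known miRNAs. By DESeq2 44 were higher and 23 lower, of which 62 were called in both, and limma-voom gave 41 and 21. Without a filter on low counts, when more rows were tested, 26 were higher and 15 lower, and with predicted rows alone in the fit 34 and 31.

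With library numbers as a replicate block, 88 were higher and 50 lower. The numbers only name the libraries: deviations of same-numbered libraries correlated at 0.304, and with 2 pairs this does not show pairing. Of the 4 rows above 4-fold between library numbers, 1 was called without the block and 3 with it; chr16_18774_mature (log2 fold change 1.91, adjusted p = 0.00022) and chr8_9784_mature (1.67, 0.00114) gained a call.

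Counting 1 row per distinct sequence, the share of counts in steers was 5.72% rather than 8.26%; TMM effective sizes turned its order (9.58% in steers, 7.82% in bulls). Of 640 values of single rows named, 22, from 10 rows not called under any of those settings, had another sign, as chr20_22514_mature with total counts (-0.17 from 0.38) and chr20_22488_mature without bulls library 2 (0.23 from -0.24); no called row changed sign. In all, 545 values kept their side of the threshold, 89 lost a call and 6 gained one. The cause of these shifts was not tested. Depth limits rows with under about 10 counts in a library.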

Other observations

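Several called rows outside the comparisons above shared letters with a neighbour in the list. The star rows of chr19_21794 and chr19_21804 have identical letters and were both called higher in steers, with 33 and 107 counts against 9 and 18 for the first and 35 and 100 against 8 and 25 for the second. The letters of chr17_19701_mature and chr17_19702_mature are also identical, and both were called higher, with 28 and 23 against 8 and 5 counts and 30 and 22 against 8 and 4. chr5_5917_mature and chr22_24744_mature, which differ at single bases, were both called lower, with 731 and 853 against 1657 and 3356 counts and 805 and 966 against 1666 and 3458. These rows are given as values chosen after they were seen.
chr19_21794_star: cATCGGCCgttgatgatcgt
chr17_19701_mature: tGCAGCTGatcacagactgt
chr5_5917_mature: cTCCTGGCtggcttgcc
chr22_24744_mature: cTCCTGGCtggctcgcc

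The seed held by the most distinct predicted sequences, 5 sequences in 6 rows, was that of chr26_27835_mature, and none of the known bovine miRNAs with 20 or more counts carried it. Of these 6 rows, 1 was called higher and 0 lower.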
